A study of Homo sapiens with 24 samples.

Results

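CXCL12 and the genes of its receptors, CXCR4 and ACKR3, were followed in precision run-on sequencing (PRO-seq) libraries of degron-tagged TRPS1 cells. PRO-seq reads the 3' ends of RNA still attached to engaged RNA polymerase, so a gene's reads follow how actively it is being transcribed and not its store of finished RNA. The members are 3 of the 60605 genes in the deposited table. They were taken by name, and CXCL12 was also chosen because it was lower with dTAG-13 in all 12 pairs of libraries. Its treatment values are therefore a description with no test, whereas the receptors were not chosen on their values.

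The cells were Clones 28, 35 and 39 of dTAG-TRPS1 T47D, a luminal breast cancer cell line that makes estrogen receptor (ER). In every clone an FKBP-based degron tag was placed on the native TRPS1 gene, which encodes a GATA-family repressor, and only tagged protein was expressed. Each clone is a single line, and all of the groups carried the tag, so that untagged parental cells had no libraries here. Each clone received 0.1% v/v DMSO or 100 nM dTAG-13, a degrader that brings the tagged protein to an E3 ubiquitin ligase, for 90 minutes. There were 4 replicates per clone and treatment, giving 24 libraries in 6 groups. The replicates were harvested at separate times within one day, with both treatments harvested together, so p-values measure the spread between these libraries, which may be technical. dTAG-13 removes the protein and not the gene, so TRPS1 reads do not check the labels. They spanned 5183 to 8747 CPM (a gene's reads scaled to the normalized size of its library) with DMSO and 6304 to 9296 CPM with dTAG-13.

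Libraries held 3226718 to 9575803 reads in genes, with a median of 5042122. The luminal label fitted the data, as 10 of 10 luminal markers passed the filter on low counts, at a summed 4124 to 6481 CPM with DMSO and 4275 to 5879 CPM with dTAG-13. Summed fibroblast markers reached 26.4 CPM, endothelial markers 10.5 CPM and leukocyte markers 14.2 CPM at most, and no marker was at 0 in all libraries. Between DMSO and dTAG-13 these 3 sums overlapped.

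CXCL12 (stromal cell-derived factor 1) is a secreted chemokine that guides migrating cells. CXCR4 is its signaling receptor, which couples to inhibitory G proteins, and ACKR3 (also called CXCR7) is an atypical receptor that binds arrestins and clears CXCL12 from the surroundings. In breast tissue CXCL12 is known as a product of stromal cells, and in ER-positive breast cancer cells it is also known as an estrogen-responsive gene.

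CXCL12 (ENSG00000107562) lies at chr10:44370165-44386493 on the minus strand of hg38 and CXCR4 (ENSG00000121966) at chr2:136114349-136119177 on the minus strand. ACKR3 (ENSG00000144476) lies at chr2:236567787-236582354 on the plus strand. In GENCODE release 44 no other gene overlapped any of the 3 on either strand. The 250 bases before the RefSeq start are given for the ligand and its signaling receptor, to show the start regions of the 2 members that passed the filter on low counts. They come from RefSeq on GRCh38.p14, run 5′ to 3′ on the minus strand, and cover chr10:44385098-44385347 for CXCL12 and chr2:136118150-136118399 for CXCR4. Each window is intronic in 1 longer GENCODE transcript of the same gene and overlaps no annotated exon. Capitals mark the ER half-site AGGTCA in CXCL12, and in CXCR4 the palindromic NRF1 motif followed by TATAAA with its overlapping match on the other strand.
CXCL12: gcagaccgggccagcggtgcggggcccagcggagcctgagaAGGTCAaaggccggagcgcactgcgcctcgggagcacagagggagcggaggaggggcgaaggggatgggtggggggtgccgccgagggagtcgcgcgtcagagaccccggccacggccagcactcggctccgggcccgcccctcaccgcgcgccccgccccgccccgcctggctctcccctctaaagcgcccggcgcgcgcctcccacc
CXCR4: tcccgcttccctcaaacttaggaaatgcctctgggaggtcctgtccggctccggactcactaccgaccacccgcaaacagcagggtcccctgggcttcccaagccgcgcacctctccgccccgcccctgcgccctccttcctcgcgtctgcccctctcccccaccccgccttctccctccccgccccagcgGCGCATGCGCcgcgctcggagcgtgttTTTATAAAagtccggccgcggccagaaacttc

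Both promoters were rich in G and C. The CXCL12 window was 78% G or C, above 94.6% of 27305 RefSeq promoters of that length, and held 31 CpG dinucleotides. The CXCR4 window was 68% G or C, above 75.7% of them, and held 24 CpG dinucleotides. The median promoter was 57.6% G or C with 10 CpG dinucleotides.

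Motifs were searched on both strands, and positions are counted back from the start. The AGGTCA of CXCL12 began at -209, and 12.2% of the promoters held this hexamer. The full estrogen response element, a palindrome of this hexamer with a spacer, was in neither window (0.00366% of promoters). The GATA motif, GATAA or GATAG preceded by A or T, was in neither window (23.0%). ACGTG, the core of a hypoxia response element, was in neither window (18.6%). The GC box GGGCGG occurred 3 times in each, and 42.2% of promoters held it. CXCR4 alone of the pair held the NRF1 motif, which reads alike on both strands, at -59 (1.13% of promoters) and TATAAA at -30 (11.2%). A match is a run of letters and no measure of binding.

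CXCL12 was the most transcribed of the 3 per length. Its mean over the 24 libraries was 5.21 CPM per kb of gene span, above 94.6% of 19942 protein-coding genes. CXCR4 was at 0.538 CPM per kb, close to the median gene at 0.577, and ACKR3 at 0.0701 CPM per kb, above 30.4% of genes. On this scale the mean of CXCL12 was 9.69-fold that of CXCR4 and 74.3-fold that of ACKR3, and the mean of CXCR4 was 7.67-fold that of ACKR3. CXCR4 was above ACKR3 per kb in 24 of 24 libraries, and within single libraries CXCL12 was 5.12-fold to 48.1-fold CXCR4, with a median of 10.0-fold.

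The 20 fibroblast, endothelial and leukocyte markers give a scale for genes that luminal cells are not known to use. They ran from 0.00696 CPM per kb for COL1A2 to 0.696 for COL1A1, with a median of 0.0211. CXCL12 lay above 20 of the 20 markers, CXCR4 above 19 and ACKR3 above 15. ACKR3 and CXCR4 therefore both sat within the range of these markers, CXCR4 below COL1A1 only.

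**Figure D1:**
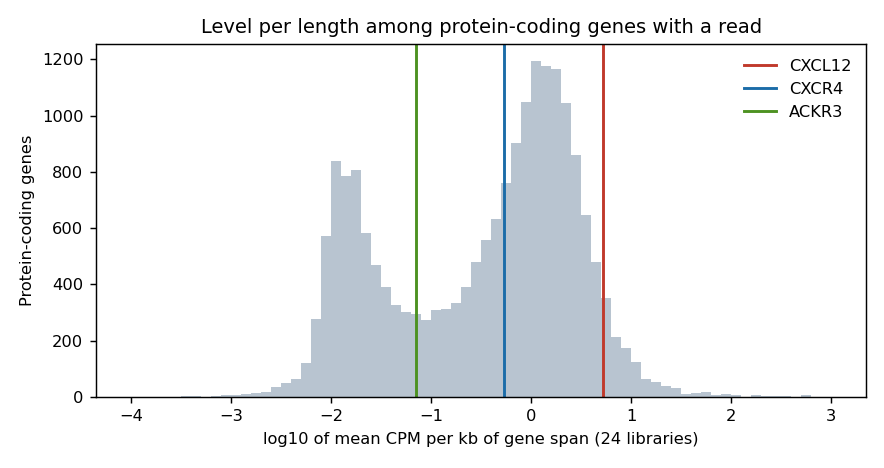
Histogram of the mean level per length (log10 of CPM per kb of gene span, x axis) of protein-coding genes that had a read, with the number of genes on the y axis and the 3 members as vertical lines. CXCL12 at 5.21 CPM per kb lies on the right shoulder, CXCR4 at 0.538 near the middle and ACKR3 at 0.0701 between the 2 peaks.

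The depth behind the members differed accordingly. CXCL12 had 299 to 696 reads per library (10323 in all), CXCR4 had 2 to 24 (312 in all) and ACKR3 had 0 to 12 (131 in all). CXCL12 and CXCR4 passed the filter on low counts with 22326 genes and ACKR3 did not, so 2 of 3 members were in the fit across all genes. For ACKR3 the CPM values were compared by exact permutation over libraries, a test chosen after its counts were seen.

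In Clone 28, CXCL12 was at 96.5, 95.1, 85.0 and 93.1 CPM in DMSO replicates 1 to 4, and at 79.1, 81.6, 74.2 and 67.9 CPM in the dTAG-13 replicates of the same numbers. Every DMSO library was above every dTAG-13 library, with means of 92.4 ± 5.14 and 75.7 ± 6.01 CPM (SD, n = 4).

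In Clone 35, CXCL12 was at 83.4, 78.3, 74.0 and 65.4 CPM with DMSO and at 65.8, 68.0, 72.8 and 60.4 CPM with dTAG-13. The groups overlapped, since DMSO replicate 4 lay below 3 of the dTAG-13 libraries, although within each pair the dTAG-13 library was lower. The means were 75.3 ± 7.64 and 66.8 ± 5.15 CPM (SD, n = 4).

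In Clone 39, CXCL12 was at 102, 101, 112 and 109 CPM with DMSO and at 81.9, 99.6, 93.4 and 102 CPM with dTAG-13. These groups met at their edges, because the highest dTAG-13 library passed the lowest DMSO library by a small margin. The means were 106 ± 5.21 and 94.2 ± 8.96 CPM (SD, n = 4).

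**Figure D2:**
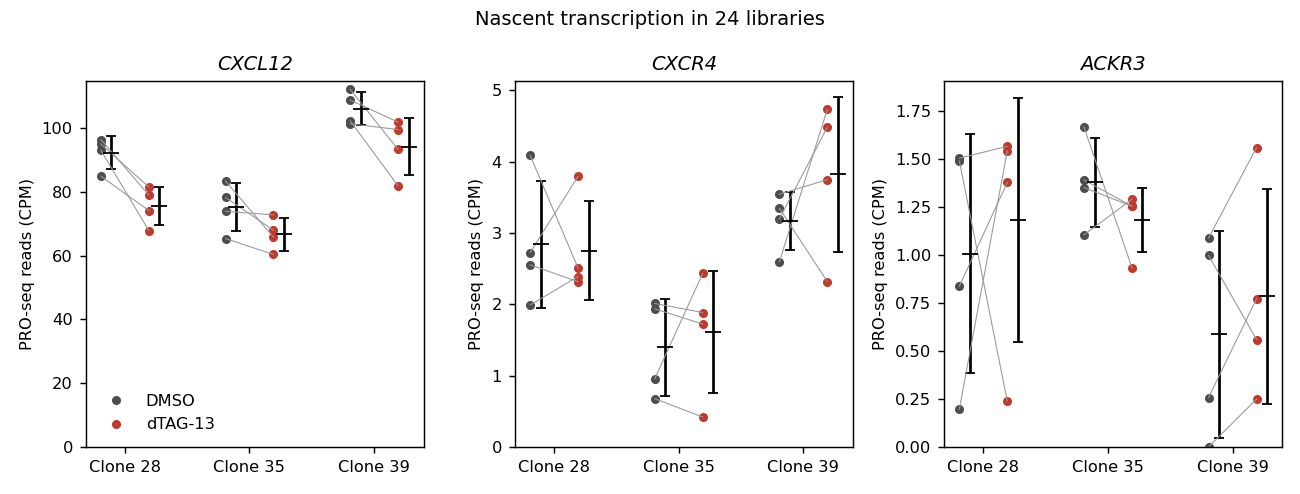
Level in CPM (y axis) of CXCL12, CXCR4 and ACKR3 in each of 24 libraries by clone, with DMSO in grey, dTAG-13 in red, lines joining libraries of the same replicate number and bars giving the mean and SD of 4 libraries. All 12 CXCL12 lines slope down, from means of 92.4, 75.3 and 106 CPM to 75.7, 66.8 and 94.2 CPM in Clones 28, 35 and 39, while the receptor lines cross.

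The size of the CXCL12 difference was modest and varied among pairs. The mean of the 12 log2 differences was -0.21 ± 0.13 (SD), a geometric mean change of -13.6%, with a range from -0.45 in replicate 4 of Clone 28 to -0.02 in replicate 3 of Clone 35. The second smallest was replicate 2 of Clone 39, at -0.03. Over all genes, 0.197% (44 genes) were lower in every one of the 12 pairs and 0.363% (81 genes) were higher in every one, and since that count chose CXCL12, nothing is read from it.

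By clone the mean log2 difference was -0.29 ± 0.11 in Clone 28, -0.17 ± 0.14 in Clone 35 and -0.18 ± 0.14 in Clone 39 (SD, n = 4). These means lie within about an SD of each other, and their difference was not tested for CXCL12. By replicate number the mean was -0.32, -0.15, -0.16 and -0.22 for numbers 1 to 4 (n = 3). The fit with the 3 clones together gave -0.21 on the log2 scale with a standard error of 0.04, which is no test of values that chose CXCL12.

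CXCR4 showed no common direction with dTAG-13. In Clone 28 it was at 1.99, 2.72, 4.09 and 2.55 CPM with DMSO and at 2.39, 3.79, 2.51 and 2.32 CPM with dTAG-13, in Clone 35 at 0.954, 0.677, 2.01 and 1.94 CPM and at 2.43, 0.419, 1.88 and 1.72 CPM, and in Clone 39 at 2.59, 3.35, 3.54 and 3.20 CPM and at 4.73, 2.32, 3.75 and 4.48 CPM. The groups overlapped in all 3 clones, with 6 pairs lower and 6 higher.

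The edgeR quasi-likelihood fit gave CXCR4 a log2 change of 0.15 with a standard error of 0.19, an adjusted p = 1.0 and a 95% interval of -0.22 to 0.52. A change of the size of the CXCL12 difference in either direction thus lies inside the interval for CXCR4. The test of a difference in response between the clones gave CXCR4 an adjusted p = 1.0. Of the genes tested, 0.551% (123) passed the threshold of 0.1 with dTAG-13, 0.358% (80) of them higher and 0.193% (43) lower. In the fit with the replicate block 2.33% (521) passed. For the difference in response between clones 0% (0 genes) passed by edgeR. Of the 22326 genes 407 had an unadjusted p under 0.05, or 1017 in the fit with the replicate block. Both are below the share of 0.05 that chance alone gives.

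ACKR3 was too sparsely read for its changes to be resolved. With DMSO it had 6, 4, 7 and 1 reads in Clone 28, 7, 8, 9 and 8 in Clone 35, and 0, 1, 4 and 5 in Clone 39. With dTAG-13 it had 1, 8, 10 and 8 reads in Clone 28, 5, 6, 12 and 9 in Clone 35, and 1, 3, 5 and 3 in Clone 39. The count of 0 in DMSO replicate 1 of Clone 39 allows up to 0.599 CPM (3 reads), which covers counting error only.

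By CPM, ACKR3 was lower in 5 pairs and higher in 7. Replicate 3 of Clone 28 was higher by CPM (1.51 and 1.57) but lower on the log2 scale with the prior count (-0.04). Its mean was 0.992 CPM with DMSO and 1.05 CPM with dTAG-13 (n = 12 each). The exact two-sided permutation test within clones gave a difference of 0.0594 CPM and p = 0.764 over 343000 arrangements, so that no difference was detectable at this depth.

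**Figure D3:**
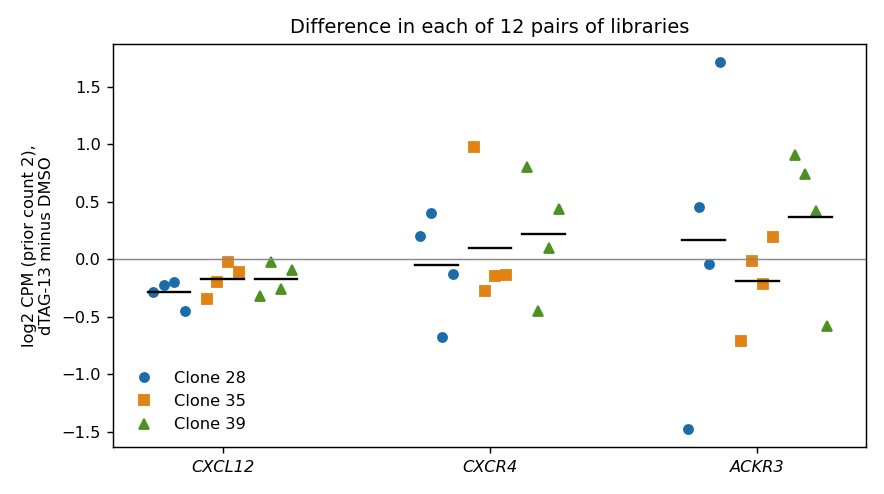
Difference in log2 CPM (prior count 2) between dTAG-13 and DMSO, y axis, for each of 12 pairs of libraries, by gene on the x axis and with clones as symbols; short bars are the means of 4 pairs. CXCL12 points run from -0.45 to -0.02, CXCR4 points from -0.68 to 0.97 and ACKR3 points from -1.47 to 1.71.

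The level of CXCL12 without degradation differed between clones, a comparison that did not choose it. In DMSO it was highest in Clone 39, intermediate in Clone 28 and lowest in Clone 35. The edgeR quasi-likelihood test gave Clone 39 against Clone 35 a log2 difference of 0.50 (1.42-fold, standard error 0.08, adjusted p = 5.2e-06), with no overlap between the 4 libraries of each. Clone 35 was lower than Clone 28 by a log2 difference of -0.30 (standard error 0.08, adjusted p = 0.0181), although with the dTAG-13 libraries the difference was -0.18 and the adjusted p = 0.257. Clone 39 was higher than Clone 28 by 0.20 (standard error 0.08, adjusted p = 0.0589), and this call was lost without DMSO replicate 3 or 4 of either clone and without the filter on low counts (adjusted p = 0.13). These comparisons called many genes: 22.6% between Clones 35 and 39, 26.7% between Clones 28 and 39 and 5.25% between Clones 28 and 35. The clone step from 35 to 39 was larger than the mean log2 difference of -0.21 with dTAG-13.

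CXCR4 had its lowest and highest means in the same clones. In DMSO it was at 1.39 ± 0.679 CPM in Clone 35, 2.84 ± 0.890 CPM in Clone 28 and 3.17 ± 0.409 CPM in Clone 39 (SD, n = 4). The edgeR quasi-likelihood test gave Clone 39 against Clone 35 a log2 difference of 1.10 (2.14-fold, standard error 0.35, adjusted p = 0.0256), and the 4 libraries of each did not overlap. Clone 35 against Clone 28 missed the threshold at -0.96 (standard error 0.36, adjusted p = 0.159) but passed it in the blocked edgeR fit, where the clones shared a term for each replicate number (adjusted p = 0.0636). Clone 39 and Clone 28 were neighbours that did not differ beyond their spread (0.14, standard error 0.33, edgeR adjusted p = 0.833, interval -0.51 to 0.79).

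The ACKR3 means ran in the opposite order, on few reads. Over both treatments (n = 8) it was at 0.686 CPM in Clone 39, 1.10 CPM in Clone 28 and 1.28 CPM in Clone 35. Clone 39 was below Clone 35 by -0.596 CPM, with p = 0.0135 by exact two-sided permutation within treatments (4900 arrangements) and 0.0404 after adjustment over the 3 clone comparisons. The permutation treats the libraries of a pair as separate. With each pair kept together as its mean, a test chosen after the data were seen, the call was lost (exact permutation p = 0.143 over 70 arrangements, 0.314 adjusted). With the DMSO libraries alone the same comparison gave -0.794 CPM and an exact permutation p = 0.0286, the smallest that 4 against 4 allows, or 0.0857 adjusted. In an edgeR fit of 53337 genes with no filter ACKR3 missed the threshold for this comparison (log2 -1.23, adjusted p = 0.194). The other exact permutation comparisons, Clone 39 with Clone 28 and Clone 35 with Clone 28, gave adjusted values of 0.263 and 0.436 without the pairs kept together.

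The order of CXCL12 and CXCR4 over libraries followed the clones. Over the 24 libraries, log2 CPM of CXCL12 and CXCR4 had a Pearson correlation of 0.51, which was -0.26 once clone means were taken out. ACKR3 correlated at -0.31 with CXCL12 and at -0.28 with CXCR4, and at 0.02 and 0.01 without clone means. These are descriptions over libraries that share clones, harvest times and a low count for the receptors.

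The replicate number was tested across the 6 groups. Replicates were harvested at different times of one day, but whether a number stands for the same harvest in every clone is not stated. For CXCL12 the edgeR adjusted p was 0.563 and for CXCR4 0.572, while 37.2% of all genes passed. Neither member was called, in libraries where many other genes differed by replicate number.

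Most other genes of the chemokine system were below the filter on low counts. Of 43 other chemokine ligands 3 passed the filter, and of the remaining 40 the highest count in any library was 16, for CCL27. With dTAG-13, 1 of the 3 rose and 0 fell, beside 0.358% higher and 0.193% lower of all genes tested. CCL28, a mucosal chemokine that acts through CCR10 and CCR3, rose from 30.1 to 37.2 CPM (log2 0.32, standard error 0.07, edgeR adjusted p = 0.016) and was higher in 11 of 12 pairs. Without Clone 28, on fewer libraries, 1 gene was called with dTAG-13, and whether it was CCL28 is not given here. CCL28 also differed by replicate number (edgeR adjusted p = 0.00982), as did 37.2% of all genes tested. CXCL16, a membrane-bound ligand, had a log2 change of -0.02 and CXCL13, a B-cell attractant, one of 0.13 (edgeR adjusted p = 1.0 for each).

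CCL28 differed among clones as well. It was at 14.2 ± 2.39 CPM in Clone 28, 24.1 ± 3.83 CPM in Clone 35 and 52.1 ± 4.04 CPM in Clone 39 with DMSO (SD, n = 4). With dTAG-13 it was at 19.4 ± 2.30, 29.7 ± 2.32 and 62.4 ± 9.19 CPM.

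Among 21 other chemokine receptors 3 passed the filter and 0 passed the threshold in either direction. ACKR2, a scavenger of inflammatory chemokines, was the most read of them at 45.8 CPM with DMSO and 50.9 CPM with dTAG-13, a log2 change of 0.15 that passed the edgeR threshold only in the fit with the replicate block (adjusted p = 0.371 without it, 0.0533 with it). CCR3, a receptor of eosinophils, had a log2 change of 0.45 with a standard error of 0.23, and CCR10 had -0.13 with a standard error of 0.13.

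Of the genes that act beside and below the receptors none was called with dTAG-13, and since 0.551% of all genes were, nothing particular to them is read from this. Of 7 other ligands and co-receptors, such as MIF and SDC4, 6 were tested with 0 called, with a median log2 change of 0.00 and a range of -0.06 to 0.03. Of 9 proteases that trim CXCL12, only MMP2, MMP14 and CPM were tested, at 0.08, -0.06 and -0.06. Of 17 genes for receptor desensitization and sorting, which include the arrestins, 15 were tested with 0 called, from -0.12 to 0.16. ARRB1 and ARRB2, the arrestins that ACKR3 and CXCR4 bind, had log2 changes of 0.10 and 0.16.

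Of 34 signal transduction genes 33 were tested with 0 called and a median of -0.01, beside 0.00 for all genes tested. PIK3R1, a regulatory subunit of PI3-kinase, passed only in the edgeR fit with the replicate block (log2 0.10, adjusted p = 0.708 without it, 0.0578 with it). Of 10 transcription factors known to act on CXCL12 or its receptors 10 were tested with 0 called. Among them ESR1, which encodes ER, had 0.06, PGR, the progesterone receptor, -0.03, and HIF1A, the hypoxia factor, 0.00. Among the luminal markers 1 of 10 fell, the keratin KRT19 (log2 -0.13, edgeR adjusted p = 0.0346), beside 0.193% of all genes tested. Without Clone 28, on fewer libraries, no gene was called lower, so the KRT19 call was lost there.

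**Figure D4:**
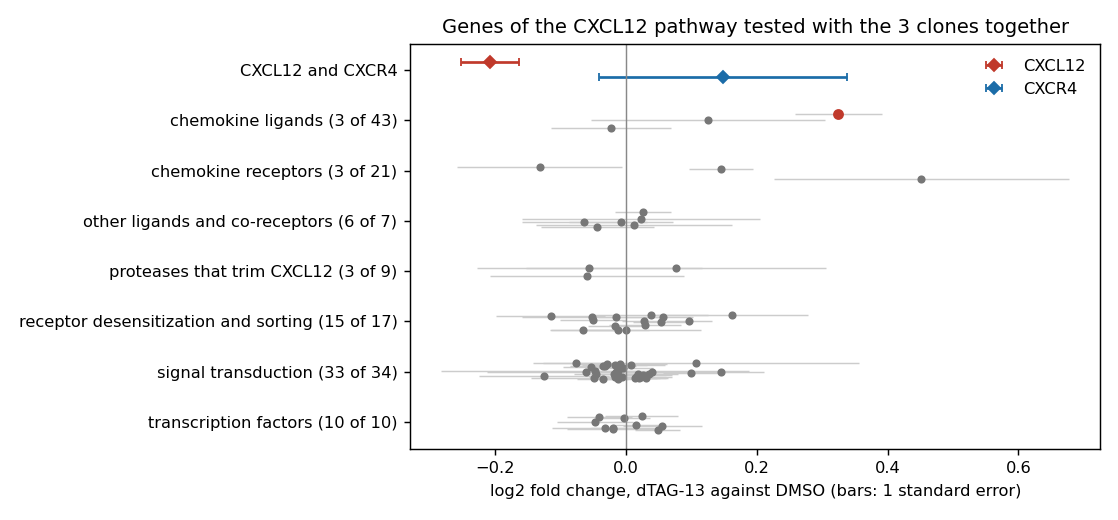
Log2 fold change of dTAG-13 against DMSO (x axis, bars of 1 standard error) with the 3 clones together, for CXCL12 and CXCR4 and for the tested genes of 7 lists (y axis, with tested of listed genes); red circles passed the threshold. CXCL12 at -0.21 lies left of 0, CCL28 at 0.32 is the red circle, and the other points pass no threshold.

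Several of these genes had a clone difference like or unlike the members'. Between Clones 39 and 35 in DMSO, 22.6% of all genes passed. Of the tested genes 2 of 3 chemokine ligands, 1 of 3 receptors and 4 of 15 desensitization genes passed. So did 12 of 33 signal transduction genes and 4 of 10 transcription factors. Among the other ligands and co-receptors 1 of 6 passed, and among the proteases 0 of 3. With lists this short, nothing is read from how these counts stand to the share of all genes. CCL28 was higher in Clone 39 by 1.13 on the log2 scale, and CXCL16 was lower at -0.83 (edgeR adjusted p = 2.5e-04). ARRB1 was lower at -0.67 (edgeR adjusted p = 1.82e-10) and ARRB2 at -0.95 (edgeR adjusted p = 0.0012).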

How the data were processed

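PRO-seq was measured in 24 libraries of 3 dTAG-TRPS1 T47D clones. The authors removed adapters with cutadapt (version 1.8.1 in the submitters' processing notes), removed duplicates by UMI, removed ribosomal reads, aligned with Bowtie2 (2.4.4) to hg38 and counted reads in genes. The deposited values are counts per gene, not normalized. The annotation and strand setting of the counting are not given in the sources used here. Names and places came from GENCODE release 44.

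Models were fitted with edgeR 4.0.16 under R 4.3.3 (filterByExpr with a minimum count of 10 on the 6 groups, TMM, robust quasi-likelihood). The model had clone and treatment, or the 6 groups for clones in DMSO and for differences in response. P-values were adjusted by Benjamini-Hochberg across 22326 genes, with a threshold of 0.1 as in the study's methods. Intervals are normal 95% intervals. CPM uses TMM library sizes, and log2 CPM a prior count of 2 that was not scaled to library size, so log2 differences of sparse genes shift with depth. Replicate numbers pair libraries by the labels (treatments collected simultaneously), and same-numbered libraries deviated together in 12 of 12 pairs (correlation 0.199 to 0.499). Replicates differed by more than counting error (chi-square per degree of freedom 1.64 to 13.6). The members and gene lists, as well as the motifs, were chosen with earlier results of these data known. Genes were named by rule: the members, up to 3 called genes per list, all of a list with 5 or fewer tested, the 3 genes most like each member, and the nearest tested gene on each side. Other genes of longer lists were named for their role after their values were seen. Alternatives were other normalization, filters, DESeq2 1.42.0, the block, and leaving out libraries or clones. Some genes that the naming rule selects are not reported here.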

Additional observations from a re-analysis of the deposited data

Results flagged for a closer look

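Each member's 6 groups were searched for a library that stood apart from the other 3 by Dixon's criterion for 4 samples. Of 18 groups 3 had one, where chance gives about 0.9. CXCR4 in Clone 28 with dTAG-13 was at 3.79 CPM in replicate 2, and 2.32 to 2.51 CPM in the others. ACKR3 in Clone 28 with dTAG-13 was at 0.239 CPM in replicate 1, which is 1 read, and at 1.38 to 1.57 CPM in the others. ACKR3 in Clone 35 with dTAG-13 was at 0.935 CPM in replicate 1 and at 1.26 to 1.29 CPM in the others. That is 5 reads against 6, 12 and 9, a gap within counting error. No group of CXCL12 had such a library.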

How the results depend on the processing

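Over the members' results other than the CXCL12 values with dTAG-13, 354 of 364 alternative values kept their side of the threshold and 0 reversed. Many of these alternatives left out a library outside the comparison, so they could move little. Others were adjusted p-values, which have no direction. The tally is therefore no measure of how firm the results are. The CXCL12 log2 difference with dTAG-13 ran from -0.23 to -0.19 with each library left out and from -0.23 to -0.17 under the other alternatives. Since the same values chose CXCL12, nothing is read from how narrow these ranges are. The CXCL12 difference between Clones 39 and 28 had an adjusted p of 0.0523 to 0.182 with each library left out, the CXCR4 difference between Clones 39 and 35 one of 0.0139 to 0.0987, and the exact ACKR3 comparison of Clones 39 and 35 one of 0.00122 to 0.0967. ACKR3 differed between Clones 39 and 28 (adjusted 0.0833) only without dTAG-13 replicate 1 of Clone 28, and CXCL12 differed by replicate number only without Clone 39 (adjusted p = 0.0301).

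The number of genes called with dTAG-13, 123, was 197 with no filter, 521 with the replicate block, 1 without Clone 28, 37 without Clone 35 and 37 without Clone 39. It was 66 to 149 with each library left out. It moved most without DMSO replicates 3 (78) and 4 (66) or dTAG-13 replicates 1 (75) and 2 (67) of Clone 28, dTAG-13 replicate 3 of Clone 35 (77) and DMSO replicate 3 of Clone 39 (80). The count for a difference in response between clones, 0, was 6 with no filter, 1 with the replicate block and 0 to 0 with each library left out. Between Clones 28 and 35 the count of 1173 was 2664 with the block and 884 to 1200 with each library left out. The counts of 5959 and 5035 between Clone 39 and Clones 28 and 35 ran from 5162 to 5966 and from 4284 to 5195. The count for replicate number, 8306, was 5239 by DESeq2, 5251 without Clone 28 and 7605 to 8453 with each library left out. The cause of these moves was not tested. The block gained the CXCR4 call between Clones 35 and 28, and keeping pairs together lost the ACKR3 call between Clones 39 and 35. It changed no other call of CXCL12, CXCR4 or ACKR3 where it was run, and the ACKR3 treatment comparison kept p = 0.764 by exact sign flips of the pairs (4096 arrangements). The 131 reads of ACKR3 and 312 of CXCR4 limit what can be seen of the receptors.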

Other observations

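Among genes with a mean of at least 10 CPM, those whose log2 CPM over the 24 libraries was most like that of CXCL12 included HOXC6 (0.87), which encodes a homeobox factor, and BMP2K (0.86, Pearson). With clone means taken out they included ZMIZ1 (0.79) and NANS (0.75). ZMIZ1 had a log2 change of -0.15 with dTAG-13 in the 3 clones together. The treatment difference that chose CXCL12 was left in the correlation that picked ZMIZ1. Its change is therefore a description with no test. For CXCR4 they were ELOVL7 (0.79), AMPD3 (0.78) and GRB10 (0.78), and with clone means taken out GINS3 (0.72), TRIM41 (0.69) and VMA21 (0.68). For ACKR3 they were ENSG00000258534 (0.69), SLC35A4 (0.67) and TRIM8-DT (0.66), and with clone means taken out RANBP1 (0.72), CAMSAP1-DT (0.70) and ZNF232 (0.70). These values are the highest of many genes and share clones, treatments and harvest times.

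With dTAG-13 no tested neighbour of the members passed the threshold. Since 0.551% of all genes tested passed it, nothing particular to the neighbours is read from this. Within 500 kb of CXCL12 lay 14 other genes of the table, of which 4 were tested and 0 passed the threshold, with a median log2 change of -0.01. Within the same distance of CXCR4, 6 of 17 were tested and of ACKR3 6 of 15, with 0 called. The nearest tested genes to CXCL12 were ENSG00000287901 at 59.9 kb (log2 -0.05) and TMEM72-AS1 at 407 kb (log2 0.00). On one side of CXCR4 it was THSD7B (log2 0.16), which at 646 kb lay outside the 500 kb. Those to ACKR3 were IQCA1 at 60.25 kb (log2 -0.15) and COPS8-DT at 328 kb (log2 -0.05).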
